A study of Mus musculus with 6 samples.

Results

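The genes described here encode the machinery of RNA polymerases I and III in mouse leukaemia cells treated with an inhibitor of the histone methyltransferases G9a and GLP. They are the array rows annotated with a single gene symbol of the Polr1, Polr2, Polr3 or Gtf3c families, together with Polrmt, Gtf3a, Taf1a, Taf1b, Taf1c, Taf1d, Ubtf, Rrn3, Brf1, Brf2 and Bdp1, with the row of highest mean taken for each gene. The rule found 43 of the 19937 genes tested. Its terms used no difference between treatments, but the members were chosen with earlier results of these data known. Of these, 35 belong to polymerases I and III, to subunits shared between polymerases or to the mitochondrial enzyme, and 8 encode subunits or partners of polymerase II alone, which serve as the contrast. The cells were mouse haematopoietic stem and progenitor cells carrying introduced HoxA9 and Meis1, which transform them into a model of acute myeloid leukaemia, grown with serum, stem cell factor and interleukins 3 and 6. Both groups carried the same transforming genes. The control group received the solvent DMSO and the other group UNC0638, a small molecule inhibitor of G9a and GLP, each for 5 days, with 3 arrays in each group. The labels do not say whether the arrays came from separate cultures or how many transformed lines were used, so each p-value reflects only the variation among these samples, and that may be technical.

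RNA polymerase I transcribes the ribosomal DNA repeats into the precursor of the large ribosomal RNAs, and RNA polymerase III makes transfer RNAs, the smallest ribosomal RNA and other short RNAs. Polymerase I is brought to its promoter by the selectivity factor SL1, of which the Taf1 proteins listed here are parts, by the DNA-bending factor Ubtf and by Rrn3. Polymerase III relies on TFIIIC (the Gtf3c proteins), on TFIIIB (which includes Brf1 or Brf2 with Bdp1) and, at the genes of the smallest ribosomal RNA, on Gtf3a. Both enzymes share a pair of subunits, Polr1c and Polr1d, and 5 further subunits are common to all 3 nuclear polymerases. Their output sets how many ribosomes a growing cell can build, and Myc is known as an activator of both systems. The arrays measured messenger RNA of the machinery and not the transcripts it makes.

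Promoter sequences are shown for 4 members on which the account below turns. They are Polr1c, the member with the largest difference, Rrn3, which links polymerase I to its promoter, and the alternative subunits Polr3g and Polr3gl, whose differences had opposite signs. Each is the stretch of 250 bases before the RefSeq start of the gene in GRCm38.p6, written 5′ to 3′ on the strand of the gene, with each CACGTG in capitals.
Polr1c: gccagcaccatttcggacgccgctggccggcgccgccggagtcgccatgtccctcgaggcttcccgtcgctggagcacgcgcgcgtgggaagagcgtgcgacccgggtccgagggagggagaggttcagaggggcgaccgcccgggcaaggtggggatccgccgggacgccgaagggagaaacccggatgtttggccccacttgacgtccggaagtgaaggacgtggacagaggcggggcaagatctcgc
Rrn3: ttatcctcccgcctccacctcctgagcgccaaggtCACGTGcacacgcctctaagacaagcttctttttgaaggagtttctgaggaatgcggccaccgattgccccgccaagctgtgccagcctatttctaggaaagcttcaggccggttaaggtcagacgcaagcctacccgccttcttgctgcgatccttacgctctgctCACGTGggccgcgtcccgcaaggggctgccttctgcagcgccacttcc
Polr3g: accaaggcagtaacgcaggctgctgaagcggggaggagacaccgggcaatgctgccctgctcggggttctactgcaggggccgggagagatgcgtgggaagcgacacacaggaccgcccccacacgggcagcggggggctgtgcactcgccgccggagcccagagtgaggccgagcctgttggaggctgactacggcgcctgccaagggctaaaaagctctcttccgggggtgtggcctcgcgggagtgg
Polr3gl: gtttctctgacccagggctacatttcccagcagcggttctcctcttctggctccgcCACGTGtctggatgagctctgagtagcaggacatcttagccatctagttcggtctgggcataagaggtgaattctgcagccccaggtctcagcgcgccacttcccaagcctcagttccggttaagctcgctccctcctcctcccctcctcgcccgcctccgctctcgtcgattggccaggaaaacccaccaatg
The windows lie at chr17:46248046-46248295 on the minus strand for Polr1c, chr16:13780449-13780698 on the plus strand for Rrn3, chr13:81711014-81711263 on the minus strand for Polr3g and chr3:96594182-96594431 on the minus strand for Polr3gl. CACGTG is the palindromic E-box that Myc and other factors can bind, so both strands are searched at once. Rrn3 holds 2 copies, which begin 215 and 48 bases before the start, and Polr3gl holds 1, beginning 194 bases before it. Polr1c and Polr3g hold none in this window. RefSeq windows were matched for 36 of the 43 members, and 4 of them (11.1%) held the motif, against 6.86% of 27025 genes. Besides Rrn3 and Polr3gl these were Polr3c and Gtf3c6, and 0 of the 6 matched polymerase II subunits had it. A match describes the letters only and does not show that a factor binds there.

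No gene of the polymerase I and III machinery passed the test after UNC0638, but most lay slightly lower. Intensities were compared as log2(intensity + 16), and each log2 difference below is the UNC0638 mean minus the DMSO mean on that scale. With limma and Benjamini-Hochberg adjustment over all genes, at a threshold of 0.05, 0 of the 35 members and 0 of the 8 polymerase II subunits changed, where 134 of 19937 genes (0.672%) did, 0.301% of all genes lower and 0.371% higher. At an unadjusted p under 0.05, 11 of the 35 were lower and 0 higher, against 6.21% and 6.47% of all genes (12.7% in either direction), and 2 of the 8 polymerase II subunits were lower. The 35 include the 5 subunits that polymerase II shares, of which 3 were lower at that p and 4 had a difference below 0. In 7 of the 35 every UNC0638 array lay below every DMSO array, in 0 every UNC0638 array lay above, and the same held for 7.4% and 9.59% of all genes, 17% in either direction. Log2 differences below 0 were found for 30 of the 35 (85.7%) and for 46.1% of all genes. Leaving out the dimmest 40% of all genes raised those background shares to 51.5% below 0, 9.74% lower at an unadjusted p under 0.05 and 10.5% with every UNC0638 array lower. The median log2 difference of the 35 was -0.16, beside 0.012 over all genes, and the differences ran from -0.54 for Polr1c to 0.16 for Polr3gl. These genes share arrays and may vary together, so the counts describe the list and carry no test. Without DMSO 2 or UNC0638 2 the count of 11 became 5 and 7, and with quantile normalization it was 7. Over all genes the shares lower in those settings were 5.32%, 4.81% and 6.14%. In these bulk samples, fewer cells of a type and less RNA per cell cannot be told apart.

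**Figure D1:**
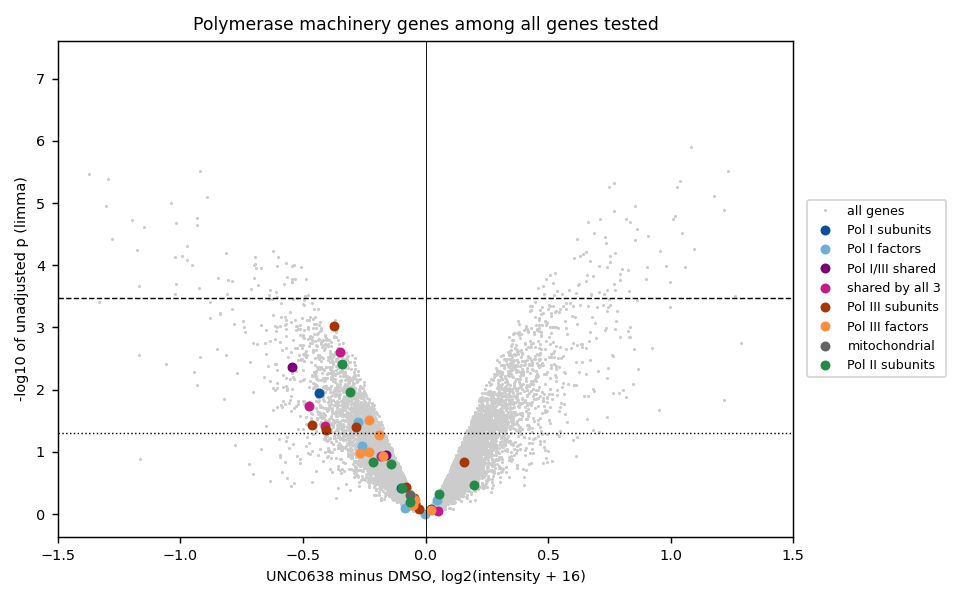
Each point is a gene, placed by its log2 difference (UNC0638 minus DMSO, horizontal axis) and by −log10 of its unadjusted limma p (vertical axis), with machinery genes coloured by group and the 8 genes beyond 1.5 on either side outside the plot. The dashed line is the largest unadjusted p among the 134 genes that passed (0.000333) and the dotted line is 0.05. All coloured points lie below the dashed line, and those above the dotted line are on the left.

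The members were measured with a standard error of 0.073 to 0.33 on the log2 scale (median 0.11, where the median over all genes was 0.098). To pass, a gene needed an unadjusted p of at most 0.000333, and the smallest difference among the 134 genes that did was 0.46 in size. Only Polr1c, Polr2f and Polr3f of the 43 members had a difference of that size. Most of these genes therefore had differences smaller than any that passed with 3 arrays per group. That smallest difference is not a limit of detection, which depends on the standard error of each gene. Failing the test does not show that a transcript was unchanged.

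The arrays had similar brightness, with median intensities of 50.4 to 52.5 in DMSO and 52.7 to 54.9 in UNC0638, and pairwise correlations over all rows of 0.980 to 0.987. All 9 genes of the myeloid progenitor list lay above the median intensity of every array, and 0 of 5 T cell, 0 of 3 B cell and 0 of 2 erythroid markers did. The 9 were Ptprc, Kit, Cd34, Mpo, Itgam, Spi1, Cebpa, Hoxa9 and Meis1. As Hoxa9 and Meis1 are the transforming genes, their signal does not bear on the cell type. Summed over the 9 genes, Hoxa9 and Meis1 included, the myeloid markers ranged from 14921 to 15592 in DMSO and from 16646 to 16755 in UNC0638. Of these 9, Itgam (log2 difference 0.46, adjusted p = 0.0709), Cd34 (0.27, adjusted p = 0.177) and Ptprc (0.25, adjusted p = 0.215) had every UNC0638 array above every DMSO array, the groups of the other 6 overlapped, and 0 passed the test. The 5 T cell markers summed to 161 to 166 in DMSO and to 174 to 209 in UNC0638. Of 5 fibroblast and 4 epithelial markers, 2 each lay above every median, with sums of 266 to 309.6 and 314.5 to 359 in DMSO, and of 283 to 317 and 327 to 427 in UNC0638. The part of these shifts in the differences described here was not tested. The targeted enzymes are inhibited as proteins, and their transcripts did not pass the test. Ehmt2, which encodes G9a, was at 123 ± 13.0 against 101 ± 2.40 (SD, n = 3 each, a log2 difference of -0.25 with SE 0.089, adjusted p = 0.293). Every UNC0638 value of Ehmt2 lay below every DMSO value, as in 7.4% of all genes. Ehmt1, which encodes GLP, had overlapping groups and a log2 difference of -0.040 (adjusted p = 0.92). Among the transforming genes Hoxa9 was at -0.12 (adjusted p = 0.686) and Meis1 at 0.0036 (adjusted p = 0.993), and whether the rows detect the introduced copies is not known from the labels.

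Among polymerase I subunits, the 2 catalytic ones had estimates of different size, and the contrast between them was not tested. Polr1b, the second-largest subunit, had intensities of 259, 192 and 204 in the DMSO group and 143, 144 and 186 in the UNC0638 group. All 3 UNC0638 values lay below the lowest DMSO value, and the means were 218 ± 35.6 against 157 ± 24.5 (SD, n = 3 each, a log2 difference of -0.43 with SE 0.13, adjusted p = 0.219). Polr1a, the largest subunit, with which Polr1b forms the active centre, was at 293, 303 and 285 in control cells, against 350.2, 270.4 and 280.3 in UNC0638-treated cells. Its groups overlapped, with a log2 difference of 0.022 and a 95% interval of -0.22 to 0.26, and the difference was -0.088 without UNC0638 1. Polr1e, a peripheral subunit that helps the enzyme engage the promoter, was at 236, 302 and 280.5 with DMSO and 230.0, 263 and 266 with UNC0638, again with overlap (a log2 difference of -0.099 with SE 0.11, adjusted p = 0.794). The partner of Polr1e is listed under its older symbol Cd3eap, outside the rule, and had 328, 506 and 375 in the DMSO group and 243, 303 and 305 in the UNC0638 group. Every UNC0638 value of Cd3eap was below every DMSO value (a log2 difference of -0.47 with SE 0.16, adjusted p = 0.256). The other 2 subunits under older symbols, Znrd1 and Twistnb, had differences of -0.13 and -0.085.

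Of the 6 initiation factors of polymerase I, 5 had differences below 0, and none had separate groups on the rows used. Ubtf, which binds along the active ribosomal DNA repeats, was at 600.2, 618 and 517 in control cells, against 524, 419.9 and 483 in UNC0638-treated cells. The highest UNC0638 value exceeded the lowest DMSO value by a small margin (a log2 difference of -0.28 with SE 0.11, adjusted p = 0.334). Rrn3 was at 502, 602 and 612 with DMSO and 416, 446 and 569.9 with UNC0638, so that UNC0638 3 lay inside the DMSO range (a log2 difference of -0.26 with SE 0.13, adjusted p = 0.478). Of the SL1 subunits, Taf1b (-0.00090) and Taf1c (0.048) lay close to 0. Taf1a was too variable to read, since its DMSO arrays alone spanned 62.1 to 190.4 (95% interval of the difference -0.77 to 0.61). Without DMSO 2 the difference of Taf1a was 0.26.

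Taf1d, another SL1 subunit, is represented by 6 rows that did not give the same value. The brightest, used by the rule, was at 6464, 5375 and 5795 in the DMSO group and 6416, 5411 and 5206 in the UNC0638 group, a difference of -0.052. It carries an accession other than the RefSeq transcripts of the gene. The row that lists those transcripts was at 906, 613 and 927 in control cells, against 657, 583 and 622 in UNC0638-treated cells. This row had a difference of -0.36 (adjusted p = 0.392 over all single-gene rows), with DMSO 2 inside the UNC0638 range. The 4 remaining rows lay between -0.84 and -0.31, and 0 of the 6 passed. The lowest of them was at 283, 255 and 216 with DMSO and 191, 89.2 and 134 with UNC0638, where the groups did not overlap (adjusted p = 0.161). The introns of Taf1d are known to encode small nucleolar RNAs, and which transcript each row reads was not tested. The other members with more than 1 row were Polr1d, Polr2c, Polr2h and Polr3e, and all their rows had differences below 0.

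**Figure D2:**
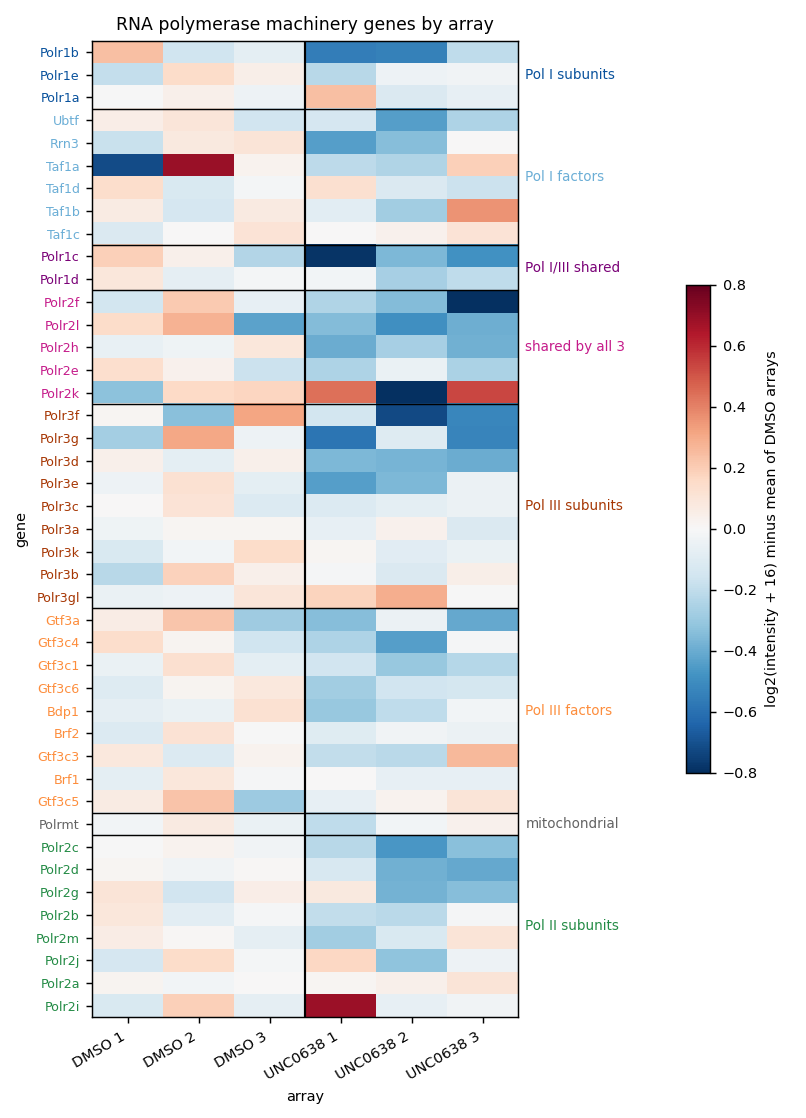
Each row is a gene and each column an array, and the colour gives log2(intensity + 16) minus the mean of the 3 DMSO arrays, with values beyond 0.8 drawn in the end colour. Blue fills most of the 3 UNC0638 columns for Polr1b, Polr1c, Polr2f, Polr2h and Polr3d, while Taf1a (DMSO) and Polr2k (UNC0638) hold both dark blue and red within 1 group.

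The subunits that polymerases I and III share included the largest difference of the 43 members. Polr1c had intensities of 647, 580.4 and 478 in the DMSO group and 321, 437 and 398 in the UNC0638 group. The highest UNC0638 value was below the lowest DMSO value, and the means were 568 ± 85.4 against 385 ± 58.7 (SD, n = 3 each, a log2 difference of -0.54 with SE 0.14, adjusted p = 0.143, 95% interval -0.86 to -0.22). Its dimer partner Polr1d was at 3914, 3501 and 3633 in control cells, against 3622, 3062 and 3199 in UNC0638-treated cells. There UNC0638 1 lay inside the DMSO range (a log2 difference of -0.16 with SE 0.092, adjusted p = 0.543). The log2 ratio of Polr1c to Polr1d was -2.57, -2.56 and -2.89 with DMSO and -3.43, -2.77 and -2.96 with UNC0638. It differed by -0.38 between the groups (two-sided exact permutation p = 0.2, and 0.3 after adjustment over 3 ratios, where 3 arrays against 3 allow no p below 0.1), so an unequal response of the partners was not established. Inherited variants in either gene, or in Polr1b, are a cause of Treacher Collins syndrome in people, a disorder of craniofacial development.

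Of the 5 subunits common to all 3 nuclear polymerases, 4 lay below 0, with a median of -0.35 for the group. Polr2h was at 1415, 1437 and 1570.4 in the DMSO group and 1113, 1221 and 1127 in the UNC0638 group. The groups were well apart and the replicates close, at 1474 ± 84.0 against 1154 ± 59.1 (SD, n = 3 each, a log2 difference of -0.35 with SE 0.082, adjusted p = 0.118). A second row annotated to Polr2h, without a RefSeq transcript among its accessions, had a difference of -0.075. Polr2f was at 382, 494 and 404 in control cells, against 357, 331 and 229.6 in UNC0638-treated cells, also without overlap (a log2 difference of -0.48 with SE 0.16, adjusted p = 0.267). Polr2l was at 989.8, 1086 and 658 with DMSO and 698, 629.7 and 675 with UNC0638. DMSO 3 was as low as the UNC0638 arrays, and the difference of -0.41 (adjusted p = 0.357) became -0.62 without it. Polr2e had a difference of -0.18 (95% interval -0.42 to 0.055). Polr2k was the least certain, at 167, 241 and 243 in the DMSO group and 296, 113 and 318 in the UNC0638 group, with both the lowest and the highest value among the UNC0638 arrays. These genes carry polymerase II names but serve polymerases I and III as well, and a difference in them cannot be assigned to 1 enzyme.

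Polymerase III has more subunits than the other enzymes, and 8 of its 9 measured ones had differences below 0, 4 of them at an unadjusted p under 0.05. Over all genes 46.1% lay below 0 and 6.21% were lower at that p, or 51.5% and 9.74% without the dimmest 40%. Lower at that p were also 3 of the 5 subunits common to all 3 nuclear polymerases and 2 of the 8 polymerase II subunits. Polr3d, which with Polr3e forms a dimer involved in termination and reinitiation, had the smallest p of the 43 members. Its intensities were 123, 112 and 122 in control cells, against 89.1, 88.4 and 86.5 in UNC0638-treated cells. The UNC0638 values were nearly equal and all below DMSO, at 119 ± 6.29 against 88.0 ± 1.33 (SD, n = 3 each, a log2 difference of -0.37 with SE 0.076, adjusted p = 0.0801, 95% interval -0.55 to -0.20). The dimer partner Polr3e was at 307, 346 and 299 with DMSO and 229, 244 and 306 with UNC0638, where UNC0638 3 lay within the DMSO range (a log2 difference of -0.28 with SE 0.12, adjusted p = 0.362). Polr3f, part of the trimer that contacts TFIIIB, was at 263, 202 and 327 in the DMSO group and 233, 151 and 176 in the UNC0638 group. It showed the same direction with wide scatter and overlap (a log2 difference of -0.46 with SE 0.19, adjusted p = 0.351).

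The catalytic subunits of polymerase III had small differences. Polr3a, the largest subunit, was at 153, 159 and 159 in control cells, against 149, 161 and 144 in UNC0638-treated cells. The groups overlapped, and the difference of -0.047 had a 95% interval of -0.22 to 0.13. Polr3b, the second-largest, had a difference of -0.026 (95% interval -0.28 to 0.23). Polr3c, a trimer subunit (-0.078), and Polr3k, which takes part in RNA cleavage at termination (-0.041), had similarly small differences. Crcp, a polymerase III subunit whose symbol lies outside the rule, was at -0.17 (adjusted p = 0.63).

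Polr3g and Polr3gl are paralogues that occupy the same place in the trimer, the first known for its abundance in stem and tumour cells and the second for its presence in most differentiated tissues. Polr3g was at 256, 390.4 and 304 with DMSO and 203, 290.2 and 212 with UNC0638. The mean was lower with UNC0638, with overlapping groups (a log2 difference of -0.40 with SE 0.17, adjusted p = 0.374, 95% interval -0.80 to -0.013). Polr3gl was at 182, 184 and 204 in the DMSO group and 217, 236 and 189.5 in the UNC0638 group. It had the highest difference of the 35 members (a log2 difference of 0.16 with SE 0.098, adjusted p = 0.595, 95% interval -0.067 to 0.38), and DMSO 3 overlapped the UNC0638 range. Within each array the log2 ratio of Polr3g to Polr3gl was 0.46, 1.02 and 0.54 in control cells, against -0.094, 0.28 and 0.15 in UNC0638-treated cells. All 3 UNC0638 ratios lay below the lowest DMSO ratio, with means of 0.67 ± 0.31 and 0.11 ± 0.19 (SD, n = 3 each). The exact permutation test gave a two-sided p of 0.1, the smallest that 3 against 3 arrays allow, and 0.3 after adjustment over the 3 ratios computed. A shift of the ratio was therefore not established, and as probes differ in brightness its level does not say which paralogue is more abundant.

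**Figure D3:**
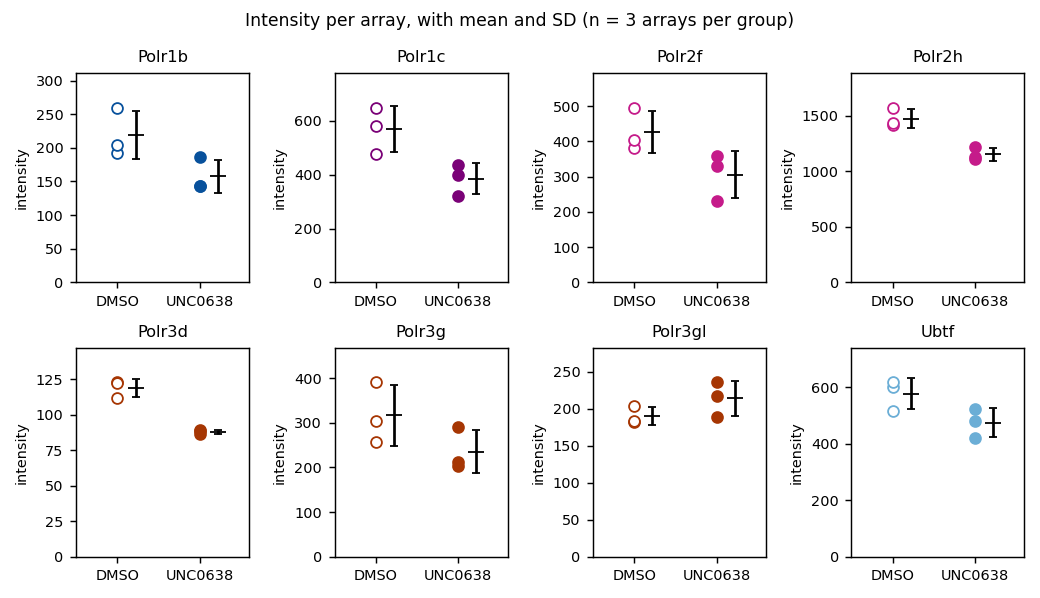
Intensity on each array (vertical axis, linear from 0) for 8 members, with DMSO as open and UNC0638 as filled points and the mean and SD of the 3 arrays beside them. Polr1b, Polr1c, Polr2f, Polr2h and Polr3d show UNC0638 points wholly below DMSO, Polr3g and Ubtf overlap, and Polr3gl has its higher mean in UNC0638.

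The 9 measured initiation factors of polymerase III had differences from -0.27 to 0.023 with a median of -0.18, where the 9 subunits ran from -0.46 to 0.16 with a median of -0.078. Gtf3c1, the largest TFIIIC subunit, which contacts the promoter inside the gene, was at 226, 258 and 221 with DMSO and 209, 187 and 198 with UNC0638. No UNC0638 value reached the DMSO range (a log2 difference of -0.23 with SE 0.088, adjusted p = 0.326). Gtf3c6, the smallest TFIIIC subunit, was at 1245, 1358 and 1417 in the DMSO group and 1101, 1202 and 1212 in the UNC0638 group, also without overlap (a log2 difference of -0.19 with SE 0.085, adjusted p = 0.405). Neither passed the test. Gtf3a was at 766, 859.7 and 599 in control cells, against 575, 709.9 and 549 in UNC0638-treated cells, with wide overlap (a log2 difference of -0.27 with SE 0.15, adjusted p = 0.526). Gtf3c4 was at 109.9, 100.1 and 86.4 with DMSO and 80.4, 68.3 and 97.6 with UNC0638 (a log2 difference of -0.23 with SE 0.13, adjusted p = 0.517), and UNC0638 3 lay within its DMSO range. Gtf3c3 and Gtf3c5 were at -0.050 and 0.023. Gtf3c2 is named only on rows that also name another gene and was left out by the rule.

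The TFIIIB subunits among the members, Bdp1 and the alternatives Brf1 and Brf2, had differences within 0.2 of 0. Bdp1 was at 440.0, 445 and 506 in the DMSO group and 373, 399 and 456 in the UNC0638 group (a log2 difference of -0.18 with SE 0.10, adjusted p = 0.547), with UNC0638 3 inside the DMSO range. Brf1, used at transfer RNA genes, was at 165, 188 and 174 in control cells, against 176, 167 and 167 in UNC0638-treated cells. Brf2, its counterpart at the promoters of the U6 type, was at 37.3, 46.3 and 41.4 with DMSO and 37.7, 40.5 and 39.7 with UNC0638. These values of Brf2 lay below the median intensity of every array, where the pseudocount shrinks differences. The 2 genes had differences of -0.043 and -0.058, with 95% intervals of -0.23 to 0.14 and -0.25 to 0.14. Their log2 ratio differed by 0.015 between the groups (two-sided exact permutation p = 0.9, also after adjustment over the 3 ratios). Polrmt, the single-subunit polymerase of mitochondria, was at 168, 179.7 and 164 in the DMSO group and 146, 167 and 175 in the UNC0638 group (a log2 difference of -0.063 with SE 0.090, adjusted p = 0.855).

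**Figure D4:**
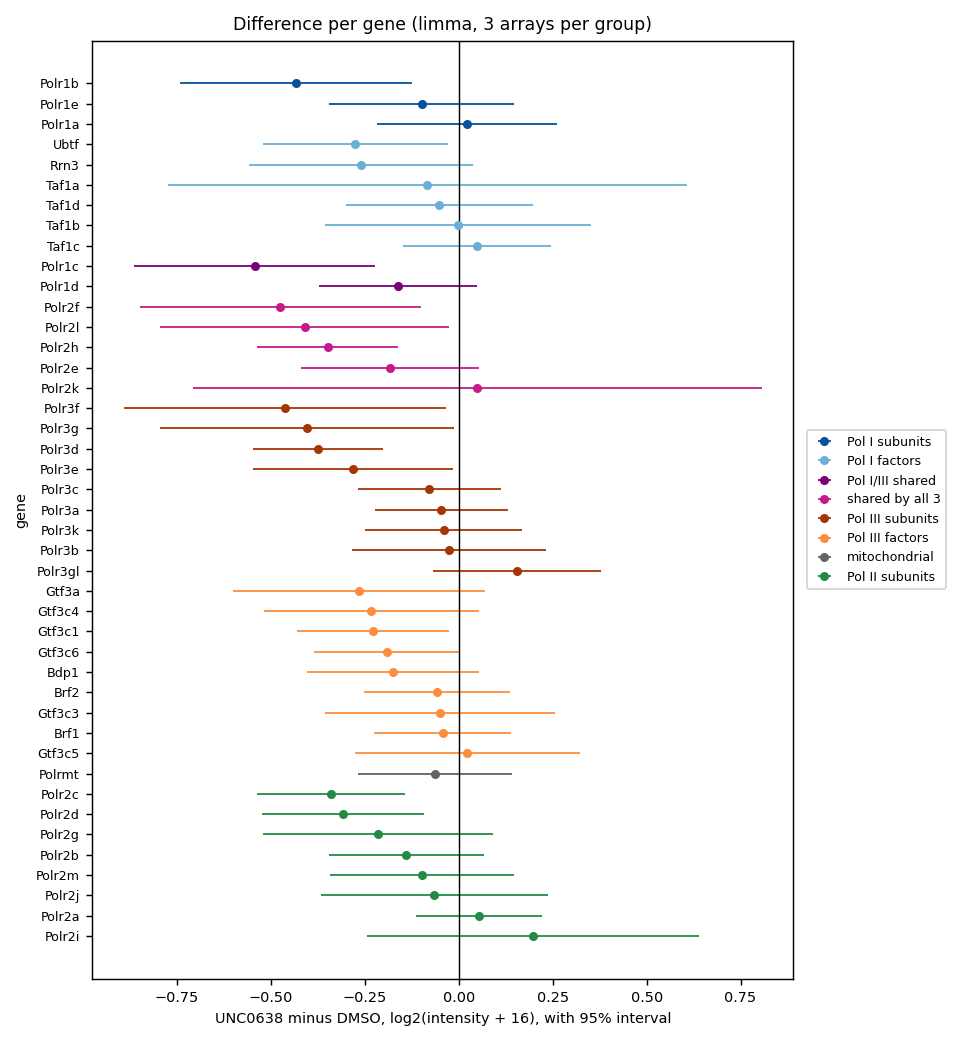
Log2 difference between UNC0638 and DMSO (horizontal axis) for each of the 43 members, with its 95% interval from limma and coloured by group. Intervals that exclude 0 lie on the left of the line, in the Pol I, Pol III, shared and Pol II groups alike, and none lies wholly on the right.

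The 8 genes of polymerase II alone also lay mostly lower, with 6 of 8 below 0, a median of -0.12 and 0 passing the test. Polr2c, part of the dimer that corresponds to Polr1c and Polr1d, was at 319.5, 327 and 314 in control cells, against 272, 228 and 251 in UNC0638-treated cells. Groups were separate (a log2 difference of -0.34 with SE 0.086, adjusted p = 0.137), and its other row gave -0.27. Polr2d, of the detachable stalk, was at 319, 308 and 317 with DMSO and 287, 237.5 and 232 with UNC0638, likewise separate (a log2 difference of -0.31 with SE 0.094, adjusted p = 0.213). Its stalk partner Polr2g had a difference of -0.21 with overlapping groups. Polr2a, the largest subunit, which carries the repeated C-terminal domain, was at 939, 909 and 924 in the DMSO group and 934, 951 and 994 in the UNC0638 group. It varied little in either group, with a 95% interval of -0.11 to 0.22 for the difference. Polr2b (-0.14), Polr2j (-0.065) and the associated factor Polr2m (-0.098) were in between. The value of Polr2i (0.20) came from UNC0638 1 alone, at 522 where the other arrays ranged from 293 to 367, and was -0.046 without it.

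Averaged over genes on each array, relative to the DMSO mean of each gene on the log2 scale, the 35 genes were at -0.041, 0.064 and -0.023 in control cells, against -0.18, -0.22 and -0.12 in UNC0638-treated cells. The groups did not overlap. The 9 polymerase I genes were at -0.077, 0.070 and 0.0069 with DMSO and -0.14, -0.23 and -0.0061 with UNC0638, with overlap. The 18 polymerase III genes were at -0.042, 0.051 and -0.0092 in the DMSO group and -0.18, -0.16 and -0.12 in the UNC0638 group, with none. The 8 polymerase II genes were at 0.0042, 0.011 and -0.016 in control cells, against 0.015, -0.24 and -0.12 in UNC0638-treated cells, with overlap owing to UNC0638 1. The mean of the 35 minus that of polymerase II was -0.045, 0.053 and -0.0077 with DMSO and -0.19, 0.020 and -0.0017 with UNC0638. These differences overlapped between the groups, so the arrays do not set the polymerase I and III genes apart from polymerase II. The 35 include the 5 subunits common to all 3 nuclear polymerases, so the comparison is not one of separate enzymes. Median log2 differences were -0.084 for polymerase I genes, -0.13 for polymerase III genes, -0.35 for the pair shared by both and -0.12 for polymerase II. The polymerase I median depended on single arrays, with -0.20 without DMSO 1, -0.18 without UNC0638 3 and -0.020 without UNC0638 2. That of polymerase III was -0.20 without UNC0638 3.

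**Figure D5:**
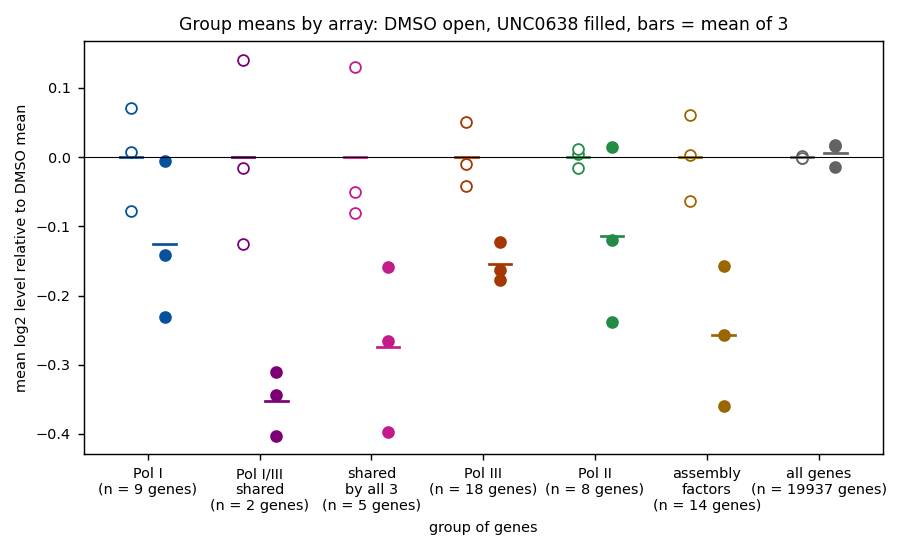
Mean log2 level of each group of genes relative to the DMSO mean (vertical axis) on every array, DMSO open and UNC0638 filled, with bars for the mean of 3 arrays and the number of genes under each group. UNC0638 points lie below all DMSO points for the shared, polymerase III and assembly factor groups and overlap with DMSO for polymerases I and II, while all genes stay near 0.

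Other genes of these pathways were read from lists of partners, and 0 of 83 measured genes passed limma with adjustment over all genes. At an unadjusted p under 0.05, 20 were lower and 2 higher, beside 6.21% and 6.47% of all genes. Over these lists 20 genes (24.1%) had every UNC0638 array below every DMSO array, beside 7.4% of all genes. Without the dimmest 40% of all genes, 9.74% were lower at an unadjusted p under 0.05 and 10.5% had every UNC0638 array lower. The assembly factors, chaperones and GTPases that build polymerases in the cytoplasm and carry them into the nucleus, stood at a median of -0.25, with 13 of 14 below 0 and 7 of 14 without overlap. Rpap3, a chaperone adaptor, was at 224, 167 and 158 in the DMSO group and 104, 96.9 and 152 in the UNC0638 group (a log2 difference of -0.58 with SE 0.17, adjusted p = 0.2). It had the largest difference of the lists, and its groups were separate. Among regulators of polymerase I and ribosomal DNA chromatin, 12 of 19 lay below 0, with a median of -0.14. Myc was at 2963, 3251 and 2823 in control cells, against 2026, 2331 and 2257 in UNC0638-treated cells. All UNC0638 values of Myc were below DMSO (a log2 difference of -0.45 with SE 0.091, adjusted p = 0.0808), and it passed with a trended robust prior (adjusted p = 0.0399) but not under the other 14 alternatives, where the adjusted p of Myc was 0.0711 to 0.23.

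Regulators of polymerase III and of small nuclear RNA genes had a median of -0.12, with 7 of 10 below 0. Snapc2, a subunit of the complex that works with Brf2 at U6-type promoters, was at 198, 209 and 181 with DMSO and 157, 149 and 138 with UNC0638, with no overlap (a log2 difference of -0.37 with SE 0.087, adjusted p = 0.118). Maf1, the repressor of polymerase III that growth signals switch off, had a difference of -0.18 (adjusted p = 0.529) with overlapping groups. General factors of polymerase II had a median of -0.14, with 21 of 29 below 0, and their largest difference was that of the TFIID subunit Taf11, at 377, 306 and 321 in the DMSO group and 261, 213 and 243 in the UNC0638 group (a log2 difference of -0.46 with SE 0.11, adjusted p = 0.116). Mitochondrial transcription factors had a median of -0.15, with 5 of 7 below 0. The 2 genes higher at an unadjusted p under 0.05, named after their values were seen, were Taf8 of TFIID (0.24, adjusted p = 0.31) and Mterf2 of the mitochondrial list (0.33, adjusted p = 0.284). Tfam, which packages mitochondrial DNA and works with Polrmt, was at 163, 175 and 164 in control cells, against 125, 122 and 133 in UNC0638-treated cells. The Tfam groups were separate (a log2 difference of -0.37 with SE 0.077, adjusted p = 0.0853), whereas those of Polrmt overlapped.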

How the data were processed

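The deposited table holds 1 intensity per probe set for each of 6 Affymetrix arrays, as processed by the authors. Biotinylated cRNA was prepared from total RNA, per the labels' protocols. How the scans were summarised and normalized, and with which software, is not given in the sources used here. The values are linear. Whether that processing shrank differences, for example of dim probe sets, is therefore not known, and the number of arrays limits the precision.

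Rows were named from the platform annotation (21640 of 34760 rows with 1 gene symbol, 1321 with several, 11799 with none), and 1 row per gene, that of highest mean, was kept. Values were transformed as log2(intensity + 16), which understates differences of dim genes. The groups were compared by limma 3.58.1 in R 4.3.3, using lmFit and eBayes over all 19937 genes, on group alone, with Benjamini-Hochberg adjustment and a threshold of 0.05. The fit was tested on simulated data with independent normal values, where recovery was required only for differences larger than that of any member. Log2 ratios of 3 subunit pairs were compared by exact permutation. Figures used matplotlib 3.10.9 (Python 3.11.15).

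Members and lists were chosen with earlier results of these data known. Every member is accounted for. Values per array are given for the 2 largest differences in each group, for Polr3g, Polr3gl, Brf1 and Brf2, for the largest difference in each list of partners, and for Polr1a, Polr2a, Polr2h, Polr2k, Polr3a, Polr3d, Polr3e, Gtf3c1, Gtf3c6, Bdp1, Taf1d and Cd3eap, some chosen after their values were seen. Alternatives were pseudocounts of 1 and 64, array weights, quantile normalization, the replicate number as a block, median centring, leaving out the dimmest 40% of genes, averaging the rows of a gene, a prior that is trended and robust, and each array left out. Other rows of a gene were added after seeing the data.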

Additional observations from a re-analysis of the deposited data

How the results depend on the processing

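No member of the polymerase I and III machinery and no polymerase II subunit passed the limma threshold under any of the 15 alternatives, nor with the RefSeq row of Taf1d. Over all genes, where 134 passed as reported, 192 passed without the dimmest genes, 182 with the trended robust prior, 73 with the replicate block, 49 with a pseudocount of 64 and 10 (without UNC0638 1) to 69 (without DMSO 3) with 1 array left out. The labels do not say whether the numbers pair the samples, and the arrays did not show it. Same-numbered arrays had correlations of deviations of -0.066, 0.11 and 0.017, and 2 of 6 arrays matched best with their own number. With 3 arrays per group this check cannot exclude a pairing. The block changed no call among the 43 members. Of the partner genes 1, Myc, passed with the trended robust prior. Members below 0 numbered 26 to 32 of 35. Over all genes the share below 0 ran from 44.1% (without UNC0638 1) to 55.8% (median centring). Members lower at an unadjusted p under 0.05 numbered 7 with quantile normalization and 5 to 11 with 1 array left out. The same share over all genes was 6.14% with quantile normalization and 4.81% to 6.67% with 1 array left out. The median of polymerase I genes was -0.20 to -0.020 and that of polymerase III genes -0.20 to -0.091 with 1 array left out, and the latter was -0.18 without the dimmest genes. The median of all genes was -0.0027 with quantile normalization, -0.017 with median centring and -0.0059 without the dimmest genes. The sign held in all 15 alternatives for 28 of the 43 members. For the others, and for 2 genes of the check on targets, the ranges with 1 array left out were Polr1a (-0.088 to 0.089), Taf1a (-0.44 to 0.26), Taf1b (-0.18 to 0.14), Taf1c (-0.0088 to 0.10), Taf1d (-0.14 to 0.019), Polr2k (-0.19 to 0.49), Polr3b (-0.14 to 0.065), Polr3k (-0.10 to 0.033), Brf1 (-0.083 to 0.0028), Brf2 (-0.11 to 3.8e-05), Gtf3c3 (-0.21 to 0.034), Gtf3c5 (-0.12 to 0.14), Polr2i (-0.046 to 0.33), Polr2j (-0.18 to 0.063), Polrmt (-0.11 to 0.0075), Ehmt1 (-0.093 to 0.0061), Meis1 (-0.0095 to 0.017). Median centring gave -0.0075 for Polr1a, -0.0068 for Gtf3c5 and -0.026 for Meis1, and Taf1b was at 0.023 with quantile normalization and 0.0014 with a pseudocount of 64. Without the dimmest genes the polymerase III median equals the value of Bdp1, which became the middle gene when Brf2 was removed. The cause of the other moves was not tested. The precision is limited by 3 arrays per group and, for Brf2, by a dim signal, and Brf2 was the 1 member that the filter removed.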
